A study of Homo sapiens with 9 samples.

Results

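The genes described are 10 enzymes that make serine, mitochondrial one-carbon units, asparagine, proline and cysteine: PHGDH, PSAT1, PSPH, SHMT2, MTHFD2, ALDH1L2, ASNS, ALDH18A1, PYCR1 and CTH. They were chosen by symbol as members of these pathways, with earlier results of these data known. Each was found in a single row among the 60605 genes of the deposited table. RNA-seq was carried out on poly(A)+ RNA of TE13, an established human ESCC cell line, whose cells had received control siRNA, siRNA.1 or siRNA.2, the latter pair directed against the long noncoding RNA LINC00885, which the study calls PARylator. The design text gives the 3 libraries of each condition, 9 in all, as biological replicates. The knockdown is transient and in a single cell line, the time between transfection and RNA extraction is not given in the sources used here, and both comparisons with control siRNA share the control libraries. The numbers 1 and 2 follow the labels of the libraries, and their match to the siRNA sequences was not tested. An earlier look at these data found a sequence signature that leaves the labels of siRNA.1 and siRNA.2 open to having been exchanged. Were they exchanged, each comparison with the control siRNA would keep its values under the other number, and the direction of siRNA.2 against siRNA.1 would turn.

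Serine is built from an intermediate of glycolysis in consecutive steps by PHGDH, PSAT1 and PSPH. In mitochondria SHMT2 passes a carbon of serine to folate, MTHFD2 oxidizes the folate-bound carbon and ALDH1L2 releases it as carbon dioxide, while in separate pathways ASNS makes asparagine, ALDH18A1 and PYCR1 make proline, and CTH forms cysteine by transsulfuration. Many of these genes are known targets of ATF4, the transcription factor that cells induce when amino acids are scarce or protein folding is disturbed, and proliferating tumor cells often depend on them.

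With siRNA.1, 7 of the 10 enzymes were higher than with control siRNA and 0 were lower (edgeR's quasi-likelihood test, adjusted p under 0.05). Over all 21395 genes tested, 15.0% were higher and 15.2% lower in that comparison. With siRNA.2, 8 of the 10 were higher and 0 lower, against 15.8% and 15.1% of all genes tested. These shares include many genes of low level, while all 10 enzymes averaged above 1 FPKM. Among the 12532 genes averaging 1 FPKM or more, fitted alone, 5819 were called with siRNA.1, 49.3% of them higher. With siRNA.2, 5913 of those genes were called, 49.5% of them higher. At an unadjusted p under 0.05 the number of lower enzymes was also 0 with either siRNA, and it was 0 by DESeq2 and by limma. The enzymes had a median log2 fold change of 0.56 under siRNA.1 and 0.71 under siRNA.2, where the median of all genes tested was -0.0006 and 0.0040. Changes in TE13 ranged from a log2 fold change of 0.02 for ALDH18A1 to 0.94 for PSAT1 with siRNA.1, and from 0.06 for SHMT2 to 1.26 for PSAT1 with siRNA.2. In FPKM, all siRNA.1 libraries lay above all control libraries for 8 enzymes, and all siRNA.2 libraries did for 9, against 20.7% and 21.1% of all genes tested. Summed over the 10 enzymes, the level was 251 ± 11.8 FPKM in the control libraries (SD, n = 3), 376 ± 5.82 with siRNA.1 and 418 ± 7.33 with siRNA.2. The summed reads were between 0.104% and 0.113% of the library in controls, between 0.160% and 0.164% with siRNA.1, and between 0.173% and 0.179% with siRNA.2.

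**Figure D1:**
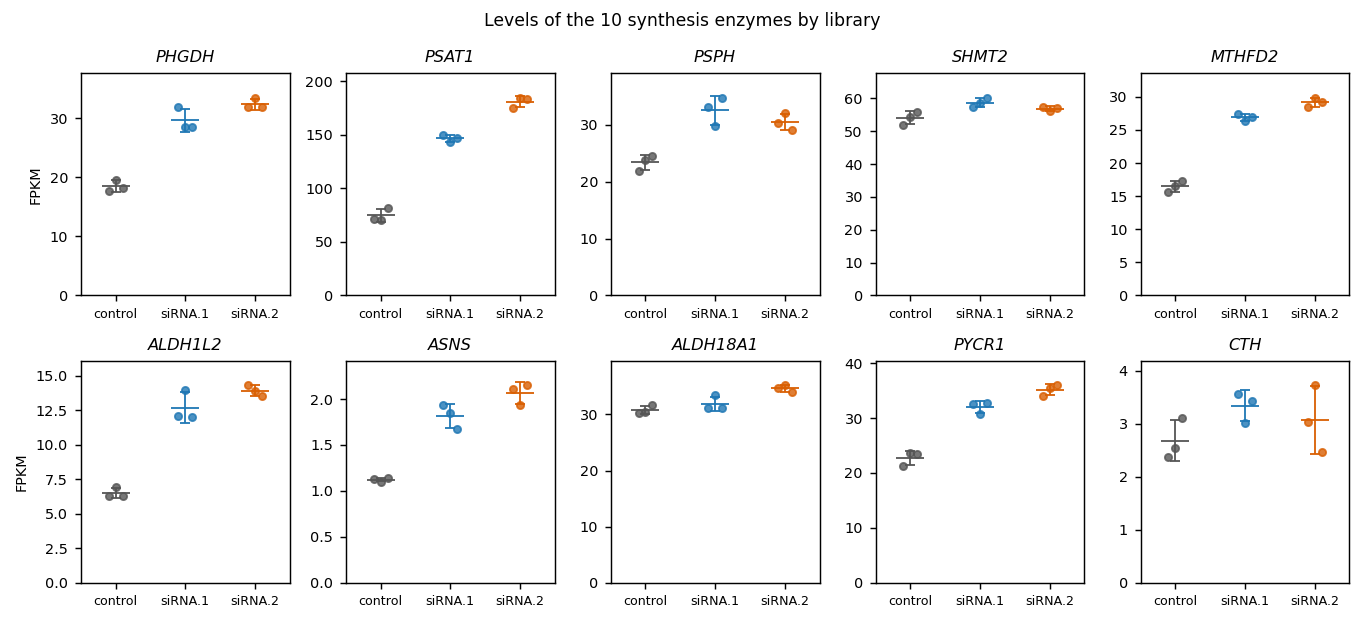
FPKM of each of the 10 enzymes (vertical axes, linear and starting at 0) in the 3 libraries of each condition (points), with the mean (bar) and SD (whiskers). PSAT1, MTHFD2 and ALDH1L2 show siRNA libraries far above all control libraries, while those of CTH overlap with the control libraries.

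LINC00885 (ENSG00000224652, GRCh38 chr3:196142525-196160893, plus strand), the siRNA target, had few reads in any library. Its counts were 6, 7 and 12 in the control libraries, 4, 5 and 2 with siRNA.1, and 2, 0 and 4 with siRNA.2. All siRNA libraries lay below all control libraries, but neither siRNA passed the threshold (siRNA.1: log2 fold change -1.21, SE 0.95, adjusted p = 0.376, edgeR; siRNA.2: -2.33, SE 1.01, adjusted p = 0.0659, edgeR). In these libraries the size of the knockdown was therefore hardly measurable, at a depth of 15337917 to 22559998 counts per library. The study separately reports siRNA knockdown of PARylator in ESCC cells by qPCR. Reads of mitochondrially encoded genes made up 7.46% to 7.66% of control libraries but 4.99% to 5.06% of siRNA.1 and 5.54% to 5.56% of siRNA.2 libraries, and with those genes left out the same numbers of enzymes, 7 and 8, were higher. Of 11 squamous epithelial markers all 11 were tested, and their summed level ranged from 876 to 910 FPKM in control, 905 to 932 in siRNA.1 and 889 to 903 in siRNA.2 libraries. Within that list 4 markers rose and 6 fell with each siRNA, KRT5 and SOX2 among those that fell. Of 12 markers of leukocytes, fibroblasts and endothelium, 6 reached the expression minimum and MS4A1 was at 0 in every library. Their sum was 3.68 to 4.15 FPKM in controls, 5.23 to 5.66 under siRNA.1 and 5.15 to 5.97 under siRNA.2, and the part of these shifts in the enzyme results was not tested. Under siRNA.1, 2 of the 6 markers were higher and 3 lower, and under siRNA.2 there were 3 higher and 3 lower. The mean of LYZ went from 0.317 FPKM in controls to 2.79 under siRNA.1 and 3.08 under siRNA.2, more than the rise of the sum, while COL1A1, VWF and CDH5 fell with both siRNAs.

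The serine synthesis enzymes rose with both siRNAs. PSAT1 had the highest fold change of the 10 under siRNA.2, while under siRNA.1 it and ALDH1L2 lay within their standard errors of each other. PHGDH, which catalyzes the first step (chr1:119648411-119744218, plus strand), was at 17.7, 19.6 and 18.2 FPKM in the control libraries, 31.9, 28.5 and 28.6 with siRNA.1, and 31.8, 33.4 and 31.8 with siRNA.2. No siRNA library came near the control range. The change was 1.58-fold with siRNA.1 (log2 0.66, SE 0.05, adjusted p = 4.24e-45, edgeR) and 1.74-fold with siRNA.2 (log2 0.80, SE 0.05, adjusted p = 2.73e-67, edgeR). PSAT1, the aminotransferase of the second step (chr9:78297125-78330093, plus strand), was at 71.4, 70.8 and 81.9 FPKM in controls, 149.5, 143 and 147 with siRNA.1, and 175, 184 and 183 with siRNA.2. The 3 conditions did not overlap at all for this gene, and siRNA.2 libraries were highest. PSAT1 changed 1.92-fold with siRNA.1 (log2 0.94, SE 0.04, adjusted p = 1.27e-97, edgeR) and 2.40-fold with siRNA.2 (log2 1.26, SE 0.04, adjusted p = 2.71e-176, edgeR). PSPH, the phosphatase that releases serine (chr7:56011051-56051604, minus strand), was at 21.9, 23.7 and 24.5 FPKM in controls, 33.2, 29.7 and 34.7 with siRNA.1, and 30.4, 32.0 and 29.1 with siRNA.2. Both siRNA conditions lay above the controls and overlapped each other. Its change was smaller than that of its pathway partners, 1.37-fold with siRNA.1 (log2 0.45, SE 0.06, adjusted p = 2.96e-12, edgeR) and 1.29-fold with siRNA.2 (log2 0.37, SE 0.06, adjusted p = 1.33e-08, edgeR). PSPHP1, a near copy of PSPH with which reads may be shared, had 94 to 136 counts in control, 110 to 161 in siRNA.1 and 169 to 215 in siRNA.2 libraries, where PSPH had 927 to 1211, 1263 to 1674 and 1660 to 1810. The summed level of the serine trio was 117 ± 7.12 FPKM in controls, 209 ± 6.69 with siRNA.1 and 243 ± 6.31 with siRNA.2 (SD, n = 3).

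The mitochondrial folate enzymes split, with MTHFD2 and ALDH1L2 higher and SHMT2 not passing the test. SHMT2, the serine hydroxymethyltransferase of mitochondria (chr12:57229573-57234935, plus strand), was at 51.9, 54.3 and 55.8 FPKM in controls, 57.2, 58.7 and 60.1 with siRNA.1, and 57.5, 56.2 and 57.0 with siRNA.2. Every siRNA library lay above the control libraries, by a narrow margin. The log2 fold change was 0.09 with siRNA.1 (SE 0.04, adjusted p = 0.113, edgeR) and 0.06 with siRNA.2 (SE 0.04, adjusted p = 0.313, edgeR). The siRNA.1 value passed when libraries were scaled by their totals alone (adjusted p = 0.0185, edgeR) and in limma on log2(FPKM + 0.1) (adjusted p = 0.028). MTHFD2, the dehydrogenase and cyclohydrolase (chr2:74186172-74217565, plus strand), was at 15.6, 16.6 and 17.2 FPKM in controls, 27.5, 26.4 and 27.0 with siRNA.1, and 28.4, 29.8 and 29.3 with siRNA.2. The 3 conditions were fully apart. MTHFD2 changed 1.60-fold with siRNA.1 (log2 0.68, SE 0.04, adjusted p = 5.59e-51, edgeR) and 1.76-fold with siRNA.2 (log2 0.81, SE 0.04, adjusted p = 3.38e-73, edgeR). ALDH1L2, the formyltetrahydrofolate dehydrogenase of mitochondria (chr12:105019784-105107643, minus strand), was at 6.29, 6.95 and 6.33 FPKM in controls, 12.1, 14.0 and 12.0 with siRNA.1, and 14.3, 13.9 and 13.5 with siRNA.2. The lowest siRNA library was well above the highest control library. ALDH1L2 changed 1.91-fold with siRNA.1 (log2 0.93, SE 0.06, adjusted p = 4.20e-57, edgeR) and 2.12-fold with siRNA.2 (log2 1.08, SE 0.06, adjusted p = 1.75e-78, edgeR).

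ASNS, which forms asparagine from aspartate and glutamine (chr7:97851677-97872542, minus strand), had the lowest level of the 10 enzymes in every condition. Its FPKM were 1.13, 1.10 and 1.14 in controls, 1.93, 1.85 and 1.67 with siRNA.1, and 2.11, 1.93 and 2.15 with siRNA.2, from 85, 84 and 100 counts in controls, 168, 139 and 143 with siRNA.1, and 205, 182 and 238 with siRNA.2. All siRNA libraries were above the controls. ASNS changed 1.58-fold with siRNA.1 (log2 0.66, SE 0.16, adjusted p = 0.000283, edgeR) and 1.82-fold with siRNA.2 (log2 0.87, SE 0.16, adjusted p = 4.04e-07, edgeR), with standard errors about as wide as those of CTH, the other enzyme with few counts. In GENCODE 44, 2415 of the 4896 exonic bases of ASNS (49.3%) also belong to a long noncoding transcript on the same strand, ENSG00000284707, which had 5 to 30 counts per library. How reads in shared exons were counted is not given in the sources used here, so the level of ASNS is uncertain.

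The ASNS promoter is shown because it is the textbook site at which ATF4 acts on these pathways. Promoters of 250 bases before to 50 after the start were available from RefSeq (GRCh38.p14) for 6 of the 10 enzymes, and there was none for PSPH, SHMT2, ALDH1L2 and PYCR1. The letters TGATGNAA (the core of the C/EBP-ATF response element), GTTACA (the second nutrient-sensing element of ASNS) and CACGTG (an E-box) were searched on both strands, and no match overlapped another. The 30 bases from 70 to 41 bases before the ASNS start (chr7:97872449-97872478, minus strand) hold the first and second of these, in capitals, and the 30 bases around the E-box of ALDH18A1 (chr10:95656830-95656859, minus strand) hold the third.
ASNS: caTGATGAAActtcccgcacgcGTTACAgg
ALDH18A1: gggctggcccgcCACGTGgagcgctggctt
The 6 enzymes had 7 promoters in that set. TGATGNAA was found in 1 of the 7, GTTACA in 1 and CACGTG in 1, against 3.62%, 6.66% and 7.26% of all 35116 promoters. The windows of PHGDH, PSAT1, MTHFD2 and CTH held none of the 3 letter strings. Transcripts in GENCODE 44 start further upstream of the ASNS start used here, so the stretch shown lies within the annotated gene.

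Of the proline enzymes PYCR1 rose with both siRNAs and ALDH18A1 with siRNA.2. ALDH18A1, which makes the precursor of proline and ornithine from glutamate (chr10:95605941-95656711, minus strand), was at 30.2, 30.5 and 31.6 FPKM in controls, 31.2, 33.4 and 31.1 with siRNA.1, and 34.8, 35.2 and 34.0 with siRNA.2. The siRNA.1 libraries overlapped with the controls and the siRNA.2 libraries did not. Its change was 1.12-fold with siRNA.2 (log2 0.16, SE 0.05, adjusted p = 0.0107, edgeR), and the log2 fold change with siRNA.1 was 0.02 (SE 0.05, adjusted p = 0.808, edgeR). The siRNA.2 call was lost without siRNA.2 replicate 2 (adjusted p = 0.0661, edgeR). PYCR1, the mitochondrial reductase of the last step (chr17:81932384-81942412, minus strand), was at 21.3, 23.6 and 23.4 FPKM in controls, 32.6, 30.8 and 32.7 with siRNA.1, and 34.1, 35.4 and 36.0 with siRNA.2. The conditions did not overlap, with siRNA.2 highest. PYCR1 changed 1.38-fold with siRNA.1 (log2 0.46, SE 0.06, adjusted p = 1.80e-13, edgeR) and 1.53-fold with siRNA.2 (log2 0.61, SE 0.06, adjusted p = 7.62e-24, edgeR).

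CTH, the cystathionine gamma-lyase (chr1:70411218-70439851, plus strand), was at 2.38, 2.55 and 3.12 FPKM in controls, 3.57, 3.02 and 3.44 with siRNA.1, and 3.03, 3.73 and 2.46 with siRNA.2. Both siRNA conditions overlapped with the controls. The log2 fold change was 0.29 with siRNA.1 (SE 0.17, adjusted p = 0.198, edgeR) and 0.17 with siRNA.2 (SE 0.16, adjusted p = 0.486, edgeR), from 88 to 173 counts per library.

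**Figure D2:**
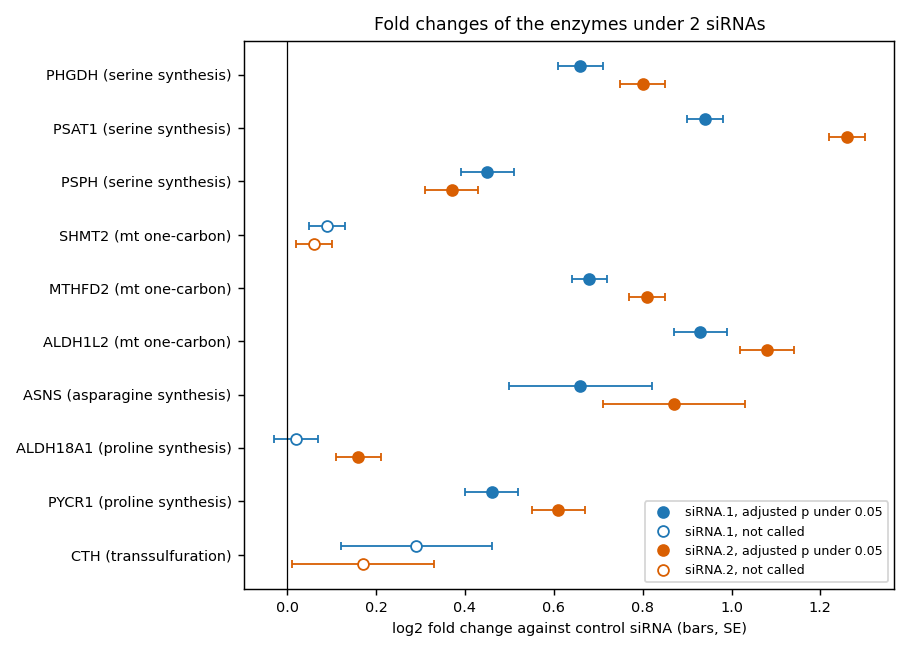
Log2 fold change against control siRNA (horizontal axis) of each enzyme with siRNA.1 (blue) and siRNA.2 (orange), with SE as bars. Filled points have an edgeR adjusted p under 0.05, which holds for 7 enzymes under siRNA.1 and 8 under siRNA.2, while open points do not.

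The enzymes covered a wide range of levels per exonic length. In controls the order by mean FPKM was PSAT1 (74.7 ± 6.25), SHMT2 (54.0 ± 1.98), ALDH18A1 (30.8 ± 0.730), PSPH (23.4 ± 1.35), PYCR1 (22.8 ± 1.31), PHGDH (18.5 ± 0.998), MTHFD2 (16.5 ± 0.821), ALDH1L2 (6.52 ± 0.370), CTH (2.68 ± 0.388) and ASNS (1.12 ± 0.0208; SD, n = 3). Only PSPH and PYCR1 were neighbors whose control libraries overlapped. With siRNA.1, PSPH, PYCR1, ALDH18A1 and PHGDH came to lie between 29.7 and 32.5 FPKM and each overlapped with the next. With siRNA.2, PYCR1 and ALDH18A1 overlapped, and so did PHGDH with PSPH and PSPH with MTHFD2. PSAT1 and SHMT2 were at the top and ALDH1L2, CTH and ASNS at the bottom in all 3 conditions. In the pathway annotation of the deposited table, 8 of the 10 enzymes were assigned to the biosynthesis of amino acids, 5 to glycine, serine and threonine metabolism and 3 to the one-carbon pool by folate. Exons of PHGDH, PSAT1, PSPH, ALDH18A1 and CTH were shared with no other gene in GENCODE 44, whereas 2.91% of the exonic bases of ALDH1L2, 8.38% of SHMT2, 14.1% of MTHFD2 and 29.7% of PYCR1 were also in other genes, mostly on the opposite strand, and whether counting used the strand is not given in the sources used here.

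Between the siRNAs, 4 of the 10 enzymes were higher with siRNA.2 than with siRNA.1 and 0 were lower (edgeR), against 6.10% higher and 6.06% lower of all genes tested. Among the 12532 genes averaging 1 FPKM or more, fitted alone, 2533 were called, 47.3% of them higher. At an unadjusted p under 0.05 the number lower was also 0. PSAT1 showed the widest gap, with a log2 fold change of 0.32 between siRNA.2 and siRNA.1 (SE 0.04, adjusted p = 7.59e-12, edgeR), and it passed in all 20 alternative analyses. The values of PHGDH (0.14, SE 0.04, adjusted p = 0.0157, edgeR), MTHFD2 (0.13, SE 0.04, adjusted p = 0.0238, edgeR) and ALDH1L2 (0.15, SE 0.05, adjusted p = 0.0480, edgeR) were close to the threshold, and passed in 13, 13 and 5 of those alternatives. Leaving out siRNA.1 replicate 3 or siRNA.2 replicate 2 reduced the count to 1 enzyme each, and leaving out siRNA.2 replicate 3 reduced it to 2. DESeq2 called 2 enzymes and limma 1. For the other 6 enzymes the log2 fold change between the siRNAs lay between -0.11 and 0.20, with adjusted p-values from 0.0656 to 0.797 (edgeR).

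Several of the reactions can be carried out by another enzyme of the same family, and these isoenzymes did not move as the enzymes above did in each case. SHMT1, the cytosolic counterpart of SHMT2, was at 9.42 ± 0.695 FPKM in controls, 8.29 ± 0.446 with siRNA.1 and 7.39 ± 0.306 with siRNA.2 (SD, n = 3). It fell with siRNA.1 (log2 fold change -0.21, SE 0.07, adjusted p = 0.00562, edgeR) and with siRNA.2 (-0.36, SE 0.07, adjusted p = 3.74e-07, edgeR), and the siRNA.1 call was lost in limma (adjusted p = 0.0833 at a pseudocount of 0.1) and without control siRNA replicate 2, control siRNA replicate 3 or siRNA.1 replicate 3 (adjusted p = 0.0534, 0.0516 and 0.0789, edgeR). MTHFD1, the cytosolic enzyme that includes the MTHFD2 activities, was at 20.6, 20.6 and 20.7 FPKM in controls, 20.1, 22.1 and 20.7 with siRNA.1, and 24.4, 23.6 and 23.4 with siRNA.2. It rose with siRNA.2 (log2 0.19, SE 0.04, adjusted p = 7.66e-05, edgeR), and with siRNA.1 the value was -0.01 (SE 0.04, adjusted p = 0.929, edgeR). MTHFD2L, a close relative of MTHFD2 in mitochondria, was at a much lower level, 1.11 ± 0.0208 FPKM in controls, 1.30 ± 0.0850 with siRNA.1 and 1.52 ± 0.149 with siRNA.2. It rose with siRNA.2 (log2 0.45, SE 0.13, adjusted p = 0.00212, edgeR), and its value with siRNA.1 was 0.21 (SE 0.13, adjusted p = 0.250, edgeR). ALDH1L1, the cytosolic counterpart of ALDH1L2, was at 0.00 FPKM in 8 libraries and 0.01 in the other one and was not tested.

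The reductase PYCR3, of the PYCR1 family, also rose. PYCR3 was at 7.37 ± 0.295 FPKM in controls, 10.9 ± 1.35 with siRNA.1 and 10.7 ± 0.625 with siRNA.2, a rise of 0.54 (SE 0.08, adjusted p = 5.99e-10, edgeR) and 0.53 (SE 0.08, adjusted p = 1.13e-09, edgeR) on the log2 scale. CBS, which precedes CTH in transsulfuration, was at 0.770, 0.670 and 1.65 FPKM in controls, 1.55, 1.38 and 1.35 with siRNA.1, and 1.50, 2.21 and 1.16 with siRNA.2. The conditions overlapped for CBS because control siRNA replicate 3 stood above the other controls. The test called it higher with siRNA.1 (log2 0.43, SE 0.15, adjusted p = 0.0199, edgeR) and siRNA.2 (log2 0.62, SE 0.15, adjusted p = 0.000178, edgeR). Those calls were lost in DESeq2 (adjusted p = 0.430 and 0.225). They were lost in limma too, the siRNA.1 call was also lost without control siRNA replicate 1, control siRNA replicate 2 or siRNA.1 replicate 1 (adjusted p = 0.280, 0.435 and 0.108, edgeR), and the siRNA.2 call without control siRNA replicate 2 or siRNA.2 replicate 2 (adjusted p = 0.0554 and 0.144, edgeR). CBS has a near-identical copy, CBSL, with 1 to 45 counts per library, so its counts are uncertain.

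The ratio of enzyme to partner was compared as the difference of log2(FPKM + 0.1) within each library, for 5 pairs and 2 siRNAs. The partner was an isoenzyme, except for CTH, whose partner CBS catalyzes the preceding step. MTHFD2 against MTHFD1 moved from a log2 ratio of -0.33 ± 0.07 in controls to 0.36 ± 0.10 under siRNA.1 and 0.29 ± 0.06 under siRNA.2 (SD, n = 3). Its shift does not depend on exonic length but its sign does, since FPKM of MTHFD1 were scaled to 12208 exonic bases in the deposited table and GENCODE 44 has 17357. SHMT2 against SHMT1 moved from 2.51 ± 0.06 to 2.81 ± 0.11 and 2.93 ± 0.05. MTHFD2 against MTHFD2L moved from 3.78 ± 0.08 to 4.27 ± 0.11 and 4.18 ± 0.16. For these 3 pairs all siRNA libraries lay above all control libraries, which gives p = 0.10 in a two-sided exact permutation test, the smallest value 3 libraries against 3 allow, and 0.167 after adjustment over the 10 comparisons. The ratio of PYCR1 to PYCR3 overlapped between conditions (1.61 ± 0.10, 1.55 ± 0.17 and 1.71 ± 0.05), as did that of CTH to CBS.

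Genes next to these enzymes in metabolism moved in both directions, as genes in general did. Over 6 lists with 80 entries, 68 genes were tested, of which 16 rose and 19 fell with siRNA.1 and 20 rose and 18 fell with siRNA.2 (edgeR, adjusted p under 0.05), with a median log2 fold change of -0.01 and 0.06. Of all genes tested, 15.0% rose and 15.2% fell with siRNA.1, and 15.8% rose and 15.1% fell with siRNA.2. Among the 12532 genes averaging 1 FPKM or more, fitted alone, 5819 and 5913 were called. These values stand beside the counts of each list below as well. The median of the 10 enzymes, 0.56 and 0.71, was higher than that of the lists in both comparisons. Enzymes and lists were chosen with earlier results of these data known, so this is a description without a test. Among 14 tested folate enzymes and carriers 1 rose and 4 fell with siRNA.1, and 4 rose and 5 fell with siRNA.2. MTHFD1L, which makes formate from the product of MTHFD2 in mitochondria, rose by a log2 fold change of 0.27 with siRNA.1 (SE 0.06, adjusted p = 5.84e-05, edgeR) and 0.43 with siRNA.2 (SE 0.06, adjusted p = 5.97e-12, edgeR).

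Of 11 genes of serine and glycine supply and use, 3 rose and 4 fell with siRNA.1 and 4 rose and 4 fell with siRNA.2. SRR, which converts L-serine to D-serine, went from 5.33 ± 0.441 FPKM in controls to 2.85 ± 0.741 and 2.94 ± 0.291 (SD, n = 3), a log2 fold change of -0.94 and -0.87 (adjusted p = 2.54e-11 and 2.40e-10, edgeR). SPTLC2, a subunit of the enzyme that uses serine for sphingolipids, fell by 0.52 and 0.42 on the log2 scale (adjusted p = 1.85e-15 and 7.37e-11, edgeR). SDSL, a serine dehydratase-like protein, rose by 0.54 and 0.45 (adjusted p = 1.61e-05 and 0.000353, edgeR). PTDSS2, a phosphatidylserine synthase, had values of 0.28 and 0.27 (adjusted p = 0.0250 and 0.0284, edgeR), and leaving out control siRNA replicate 3 or siRNA.1 replicate 1 or 3 ended its siRNA.1 call, and leaving out control siRNA replicate 3 or any siRNA.2 library ended its siRNA.2 call (adjusted p up to 0.141 and 0.158, edgeR). In purine synthesis, which takes up glycine and one-carbon units, 4 of 10 genes rose under siRNA.1 and 6 under siRNA.2, and the others did not pass the test. PFAS, an enzyme in the middle of that pathway, rose by 0.37 and 0.50 (adjusted p = 1.51e-09 and 3.59e-17, edgeR), and PPAT, the first enzyme, by 0.35 and 0.38 (adjusted p = 1.41e-05 and 1.30e-06, edgeR).

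In the list of the methionine cycle, transsulfuration and glutathione, 4 of 15 tested genes rose and 4 fell with siRNA.1, and 2 rose and 3 fell with siRNA.2. CHAC1, a glutathione-degrading enzyme known as an ATF4 target, went from 11.3 ± 1.51 FPKM in controls to 23.0 ± 1.08 and 23.1 ± 1.43 (SD, n = 3), a log2 fold change of 1.00 and 1.02 (adjusted p = 7.93e-32 and 1.18e-33, edgeR). AHCYL1, a relative of the enzyme that clears S-adenosylhomocysteine, fell by 0.54 and 0.44 (adjusted p = 5.32e-24 and 3.13e-16, edgeR), and GCLM, a subunit of the first enzyme of glutathione synthesis, by 0.33 and 0.19 (adjusted p = 8.39e-09 and 0.00151, edgeR). Among 11 genes of aspartate, asparagine, glutamate and glutamine, 2 rose and 4 fell with siRNA.1, and 2 rose and 3 fell with siRNA.2. GPT2, the mitochondrial alanine aminotransferase, was at 5.94, 6.62 and 5.95 FPKM in controls, 11.0, 11.1 and 10.1 with siRNA.1, and 13.5, 14.4 and 13.3 with siRNA.2, a rise of 0.77 and 1.14 on the log2 scale (SE 0.07 each, adjusted p = 2.13e-28 and 1.04e-64, edgeR). ASS1, which joins citrulline to aspartate, fell by 0.55 and 0.49 (adjusted p = 2.55e-32 and 3.80e-26, edgeR) and GLUD1, glutamate dehydrogenase, by 0.28 and 0.29 (adjusted p = 1.58e-08 and 2.83e-09, edgeR), and both genes have near copies with which reads may be shared. Of 7 other genes of proline and ornithine 2 rose and 3 fell with each siRNA. ODC1, which opens polyamine synthesis, rose by 0.97 and 0.54 (adjusted p = 6.83e-70 and 2.97e-22, edgeR), PEPD, which splits proline-containing dipeptides, fell by 0.51 and 0.38 (adjusted p = 3.42e-07 and 0.000199, edgeR), and ALDH4A1, a proline-degrading dehydrogenase, had values of -0.71 and -0.52 (adjusted p = 0.000856 and 0.0168, edgeR). The siRNA.2 call of ALDH4A1 was lost without control siRNA replicate 1 or siRNA.2 replicate 1 (adjusted p = 0.0760 and 0.0955, edgeR).

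**Figure D3:**
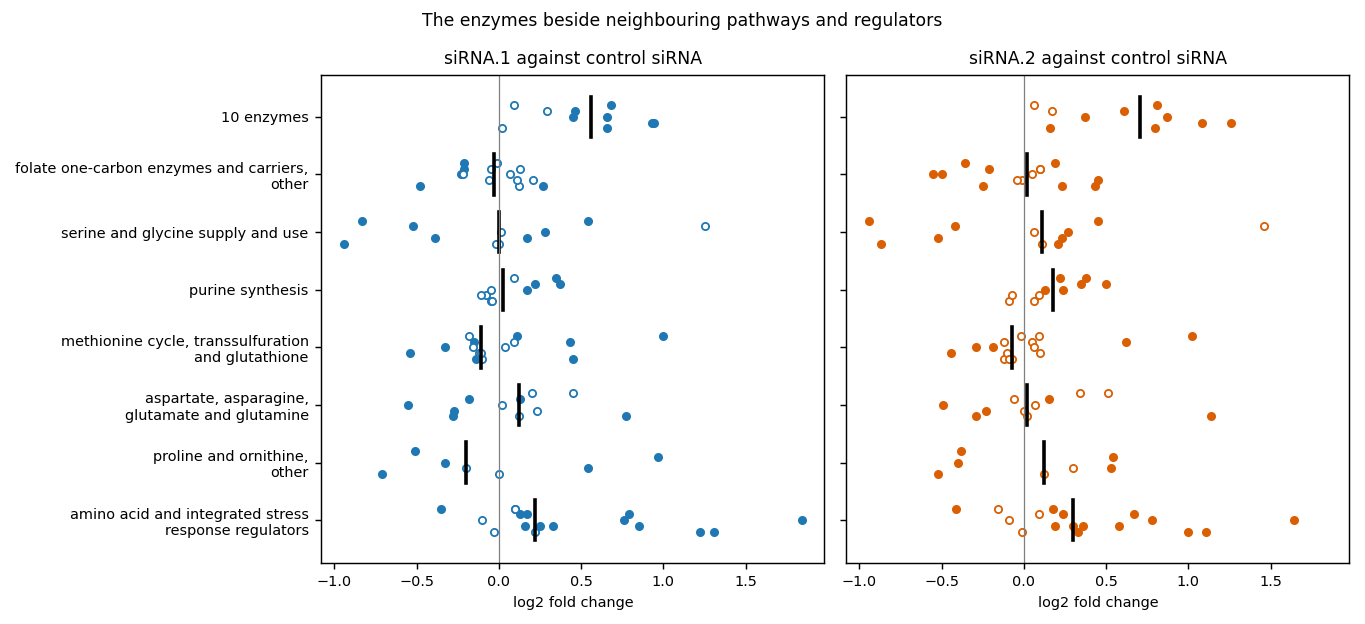
Log2 fold change against control siRNA (horizontal axis) with siRNA.1 (left) and siRNA.2 (right) of the 10 enzymes, of the tested genes in 6 neighboring pathway lists and of regulators of the amino acid and integrated stress response. Filled points have an edgeR adjusted p under 0.05, open points do not, and the vertical bar is the median of the list, 0.56 and 0.71 for the enzymes.

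Regulators of the amino acid and integrated stress response, 17 genes, rose in 11 cases and fell in 1 with siRNA.1, and rose in 12 and fell in 1 with siRNA.2 (edgeR, adjusted p under 0.05), with a median log2 fold change of 0.22 and 0.30. The shares of all genes tested were 15.0% higher and 15.2% lower with siRNA.1, and 15.8% and 15.1% with siRNA.2. ATF4 mRNA was at 148, 155 and 160.3 FPKM in controls, 189, 183 and 189 with siRNA.1, and 198, 204 and 197 with siRNA.2. No siRNA library overlapped with the controls, and the change was 0.25 (SE 0.04, adjusted p = 5.45e-09, edgeR) and 0.36 (SE 0.04, adjusted p = 3.89e-18, edgeR) on the log2 scale. ATF4 is controlled largely by translation, which these libraries do not measure. DDIT3, also called CHOP, was at 4.84, 6.33 and 5.26 FPKM in controls, 12.8, 13.1 and 13.2 with siRNA.1, and 11.7, 12.0 and 12.1 with siRNA.2. The change was 1.22 (SE 0.13, adjusted p = 1.29e-18, edgeR) and 1.11 (SE 0.13, adjusted p = 9.55e-16, edgeR) on the log2 scale. ATF3, another stress-induced transcription factor, rose by 1.31 and 1.00 (adjusted p = 1.06e-52 and 3.73e-31, edgeR). PPP1R15B, a subunit of the phosphatase that reverses the phosphorylation of eIF2 alpha, fell by 0.35 and 0.41 (adjusted p = 3.73e-12 and 8.03e-17, edgeR).

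To find genes with the pattern most like that of the enzymes, log2(FPKM + 0.1) was centered on the control mean of each gene and compared over the 9 libraries with the mean of the 10 enzymes, which was between 0.52 and 0.57 in siRNA.1 and between 0.59 and 0.66 in siRNA.2 libraries. PYCR1 lay nearest to this mean, at a Euclidean distance of 0.140, PHGDH next, at 0.425, and PSAT1 farthest, at 1.36. All enzymes but PYCR1 thus lay farther from their mean than the 10 genes named below. Among 11858 other named genes averaging 1 FPKM or more, the 10 nearest were at distances from 0.111 to 0.185. SLCO4A1, a transporter of organic anions, was the nearest, with 8.25 ± 0.403 FPKM in controls, 12.0 ± 0.170 with siRNA.1 and 12.4 ± 0.197 with siRNA.2 (SD, n = 3). It was followed by CYCS (cytochrome c), NIP7 (ribosome assembly), CTSL (cathepsin L), ELL2 (transcription elongation), ISG20L2 (ribosomal RNA processing), MTIF2 (mitochondrial translation initiation), PDCD11 (ribosomal RNA processing), AARS1 (alanyl-tRNA synthetase) and MRPL36 (mitochondrial ribosome). All libraries enter every distance, so that shared depth and scaling are common to the enzymes and these genes, and the distances are a description without a test.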

How the data were processed

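RNA-seq libraries of TE13 cells (control siRNA, siRNA.1 and siRNA.2, 3 each) were grouped by their labels. According to the methods and the submitters' processing notes, reads were aligned with STAR to GRCh38 and counted per gene with featureCounts; versions, annotation release and strand settings are not given in the sources used here. The authors deposited raw counts and FPKM, that is counts scaled by exonic length and library total. Counts were tested with edgeR 4.0.16 in R 4.3.3 (quasi-likelihood, TMM) over the 21395 genes averaging 0.1 FPKM or more, in 1 fit of the 3 conditions, with Benjamini-Hochberg adjustment at 0.05. Each SE was obtained as |log2 fold change| / sqrt(F). Totals of 15337917 to 22559998 counts set the precision, and edgeR's common biological variation (BCV) was 0.0566. Isoenzyme ratios and the ratio of CTH to CBS were compared by exact permutation (scipy). Start, end and exonic length of the 10 enzymes equal those in GENCODE 44.

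The enzymes and all gene lists were chosen with earlier results of these data known. Beside the enzymes and their isoenzymes, up to 2 genes in each direction were named per list, those with the largest mean change of both siRNAs among genes passing with both in the same direction at a mean of at least 1 FPKM, together with ATF4, DDIT3 and the 10 most similar genes; some genes chosen by these rules are not reported here; KRT5, SOX2, LYZ, MS4A1, COL1A1, VWF and CDH5 were named after their values were seen. Alternatives were DESeq2 1.42.0, limma 3.58.1 on log2(FPKM + 0.1, 1 or 0.01), RLE factors, library totals, no mitochondrial genes, no filter, at least 1 FPKM, 2 conditions per fit, a replicate block and each library left out. The edgeR, DESeq2 and limma steps were tested on simulated data.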

Additional observations from a re-analysis of the deposited data

Results flagged for a closer look

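By the test of siRNA.2 against siRNA.1 itself, 4 of the 10 enzymes were called higher with siRNA.2, against 6.10% of all genes tested. Among the 12532 genes averaging 1 FPKM or more, as all 10 enzymes do, 2533 were called in a fit of their own, 47.3% of them higher. PSAT1 passed in all 20 alternatives, PHGDH and MTHFD2 in 13 each and ALDH1L2 in 5. The log2 difference was 0.32 for PSAT1 (146 ± 3.20 FPKM with siRNA.1 and 181 ± 5.10 with siRNA.2, SD, n = 3), 0.14 for PHGDH (29.7 ± 1.93 and 32.4 ± 0.927), 0.13 for MTHFD2 (26.9 ± 0.525 and 29.2 ± 0.727) and 0.15 for ALDH1L2 (12.7 ± 1.13 and 13.9 ± 0.396). Libraries of the siRNAs did not overlap for PSAT1 and MTHFD2 and overlapped for PHGDH and ALDH1L2.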

How the results depend on the processing

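The count of higher enzymes was 7 or 8 with siRNA.1 and 7 or 8 with siRNA.2 in the 20 alternatives run, and no alternative called an enzyme lower. The count between the siRNAs was 2 with DESeq2, 1 with limma at each pseudocount, and 1 to 4 with a library left out. The median log2 fold change of the enzymes was 0.47 and 0.57 with limma on log2(FPKM + 1), whose pseudocount shrinks changes of low genes, and 0.52 to 0.59 and 0.67 to 0.73 with a library left out. Uncalled values changed sign, the cause not tested, for MTHFD1 with siRNA.1 (0.018 to 0.019 with limma, 0.019 with library totals) and with a library left out for ALDH18A1 with siRNA.1 (-0.0029 to 0.045), CTH between the siRNAs (-0.28 to 0.025) and MTHFD1 with siRNA.1 (-0.040 to 0.019). Replicate numbers are shared between conditions, but deviations of same-numbered libraries correlated at only -0.155 to 0.097 over 12532 genes, so they were not taken as pairs. With the replicate block 7 and 8 enzymes were higher against control and 3 between the siRNAs, where ALDH1L2 was lost, and genes called went from 6472 to 6215 and from 6614 to 6359. LINC00885 had no value at a mean of at least 1 FPKM, and ASNS and CTH, with 84 to 238 counts, have the widest errors of the 10.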
